A study of Mus musculus with 8 samples.

Results

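Nrbp2 was 1 of 19356 gene name entries on the arrays of this study, some of which are coordinates or hyphen-joined names. It was represented by 7 of 83122 probes, namely every non-control probe whose gene name in the scanner files is exactly Nrbp2. All 7 lie together on chromosome 15, between positions 76138436 and 76139542, and form a single region of 1107 bp, out of 17617 regions tested. The gene was picked because its signal at weaning far exceeded that before birth, so its own ratios are given as a description and carry no test.

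The study compared liver DNA of C57BL6/J mice late in gestation, at embryonic day 17.5 (E17.5), with that of mice at postnatal day 21 (P21), with 2 biological replicates of each age. The labels give no treatment or genetic change, and they state neither the sex of the mice nor how many animals went into a sample. Methylated DNA had been enriched by MCAM, methylated CpG island amplification on microarrays. In this method a methylation-sensitive enzyme first cuts unmethylated sites, its insensitive partner then cuts the methylated ones, and only fragments with methylated ends take up adaptors and are amplified. A brighter probe therefore stands for more of a fragment with methylated ends, and not for a percentage of methylated cytosines.

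Nrbp2 encodes nuclear receptor binding protein 2, a pseudokinase, that is, a protein with a kinase fold that is thought to lack catalytic activity. Its better studied paralogue Nrbp1 takes part in protein turnover through cullin ubiquitin ligases and binds proteins of the Tsc22d family, which are linked to WNK kinases and cell volume control. DNA methylation close to a gene's start usually goes with a silent promoter, while methylation inside a gene has no such simple relation to expression. Between the fetal and the weaned stage, liver passes from a blood-forming to a metabolic organ, so the mix of cells in the tissue differs between the ages.

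Each replicate pair of ages shared an array, E17.5 in the green dye (Cy3) and P21 in the red dye (Cy5), with no dye swap. For every ratio given here, an effect of the dye cannot be told apart from one of age. In whole tissue, a change in the share of a cell type and a change of methylation within cells cannot be told apart either. The arrays read DNA only, so the tissue label was not checked against expressed markers. On the array design that holds Nrbp2, 29678 probes were tested and the log2 ratios of autosomal probes had an SD of 0.40 on replicate 1 and 0.51 on replicate 2. The replicate 2 array stood apart on the X chromosome, where 13.4% of 1858 probes had a P21 signal at most 0.5 times that of E17.5, against 1.40% on replicate 1. For autosomal probes the shares were 3.67% and 2.13%. Nrbp2 is autosomal, and its values are given for each array.

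All 7 Nrbp2 probes were much brighter in P21 than in E17.5 liver, and on no probe did the ages overlap. The processed signal (background-subtracted and dye-normalized intensity) of the 7 probes lay between 3171 and 9861 in E17.5 replicate 1 and between 5298 and 19700 in E17.5 replicate 2. In P21 it lay between 55697 and 189161 in replicate 1 and between 79495 and 236757 in replicate 2. Every one of the 28 values was well above background and 0 were saturated or marked as outliers, so both ages were measured and no ratio is a mere bound.

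**Figure D1:**
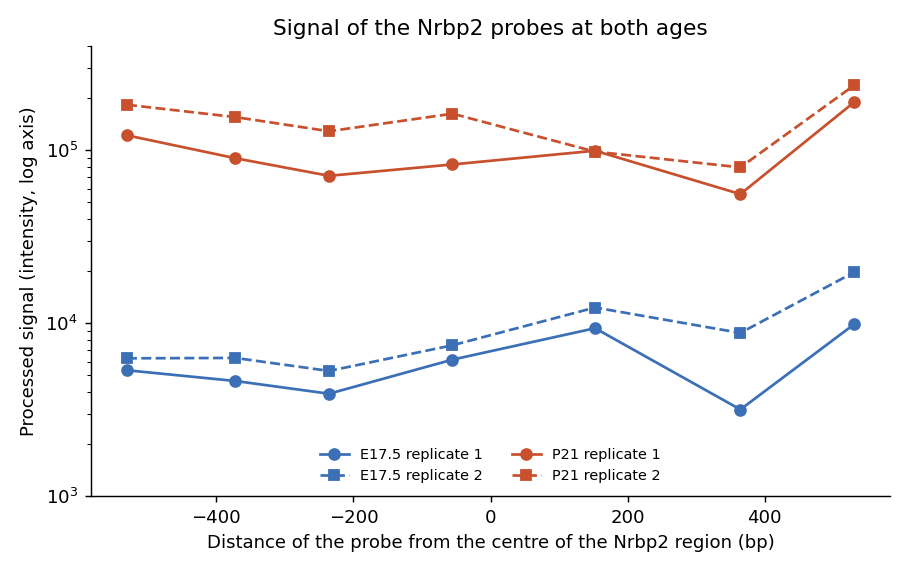
Processed signal (intensity, log axis) of the 7 Nrbp2 probes against their distance in bp from the centre of the region, for both replicates of E17.5 (blue) and P21 (red). The lines only join the probes of a sample, and levels of different probes are not comparable. At each of the 7 probes both P21 values lie above both E17.5 values.

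The array annotation divides the probes into 2 of class INSIDE, at the lower coordinates, and 5 of class PROMOTER. The first INSIDE probe, at 76138436 to 76138481, read 5345 and 6266 in E17.5 replicates 1 and 2 and 121787 and 182890 in P21. It had the largest P21 over E17.5 ratio of the gene, with 22.8-fold on replicate 1 and 29.2-fold on replicate 2. These folds are plain ratios of the signals, whereas log2 ratios are centred on the median of each array. The second INSIDE probe, at 76138594 to 76138639, read 4635 and 6298 in E17.5 and 89827 and 155244 in P21. Both probes of the transcribed side were thus far brighter in P21 on both arrays, at a mean log2 ratio of 4.67 ± 0.24 for the first and 4.43 ± 0.24 for the second (SD, n = 2).

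The PROMOTER probes carried the same direction to the other end of the region. The probe at 76138731 to 76138776 read 3912 and 5298 in E17.5 and 71054 and 128546 in P21. The next, at 76138911 to 76138956, read 6158 and 7455 in E17.5 and 82657 and 162406 in P21. Both were brighter on the replicate 2 array at either age, and more so in P21.

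The probe at 76139119 to 76139164 showed the smallest difference. It read 9353 and 12318 in E17.5 and 99225 and 97989 in P21. Its ratio before centring was thus 10.6-fold on replicate 1 and 7.95-fold on replicate 2. It was the only Nrbp2 probe that was not brighter on the replicate 2 array in P21. The probe at 76139331 to 76139376 read 3171 and 8780 in E17.5 and 55697 and 79495 in P21, and the last one, at 76139497 to 76139542, 9861 and 19700 against 189161 and 236757. In these last 2 probes the replicates differed more in E17.5, by 2.77 and 2.00 times, than in P21, by 1.43 and 1.25 times. Signals were not normalized between arrays, so a factor between replicates also holds the overall brightness of the array.

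Taken over the region, the log2 ratio of P21 over E17.5, centred on the median of each array, was 4.06 on replicate 1 and 4.02 on replicate 2. The mean was 4.04 ± 0.03 (SD, n = 2), or 16.4-fold. This SD is much smaller than that of any single probe, for which it lay between 0.24 and 0.68 with a median of 0.30. The probes departed in opposite directions: the first 4 probes had a higher ratio on replicate 2, by 0.44 on average, and the last 3 a lower one, with a mean difference of -0.69. Averaged over the first 4 probes the ratio was 4.17 on replicate 1 and 4.61 on replicate 2, and over the last 3 it was 3.92 and 3.23. This grouping of probes was made after the values were seen. The close match of the region means is thus the balance of these departures, and the SD of 0.03 is smaller than the difference between the arrays at any probe.

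**Figure D2:**
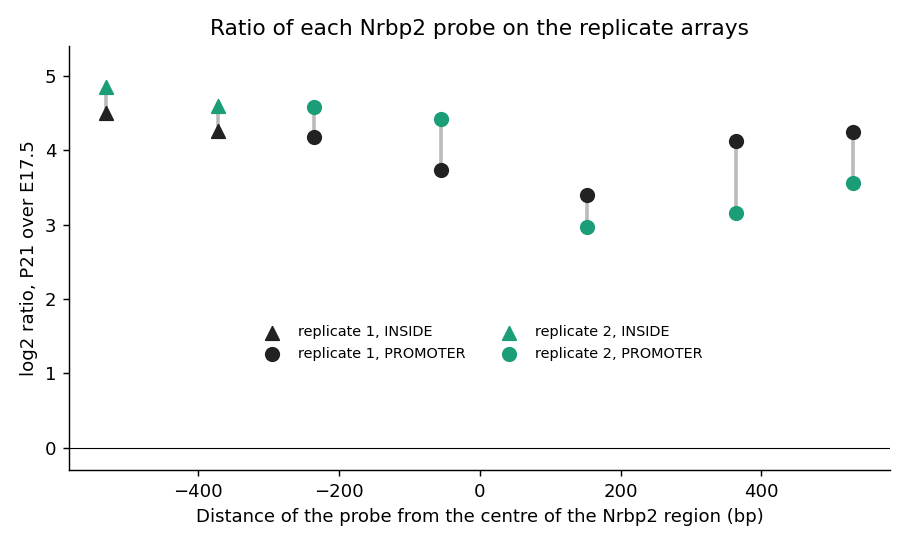
Log2 ratio of P21 over E17.5 for each Nrbp2 probe against its distance in bp from the centre of the region, on replicate 1 (black) and replicate 2 (green), with triangles for INSIDE and circles for PROMOTER probes and a grey bar joining the 2 arrays. The 4 probes on the left lie higher on replicate 2 and the 3 on the right lie higher on replicate 1, while all 14 values lie between 2.97 and 4.84.

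Along the region the ratio was highest in the INSIDE probes, at means of 4.38 on replicate 1 and 4.72 on replicate 2, against 3.93 and 3.74 over the 5 PROMOTER probes. The classes did not overlap, but came close. On replicate 1 the highest PROMOTER probe, at 76139497, stood at 4.25 and the lower INSIDE probe at 4.26. On replicate 2 a different PROMOTER probe, at 76138731, was highest, at 4.58 against 4.60 for the lower INSIDE probe. The difference between the classes was not tested, because the gene was chosen on these ratios. The SD of the ratio over the 7 probes was 0.37 on replicate 1 and 0.77 on replicate 2. For the other 1057 regions with at least 7 tested probes, the median of this SD was 0.22 and 0.31, and 196 of them on replicate 1 and 83 on replicate 2 varied more than Nrbp2. Across the 7 probes, the ratios of the arrays correlated at r = 0.56 (Spearman's rho 0.82). This is a description over neighbouring probes of one region on the same arrays.

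The ages were also apart in the values before background subtraction and dye normalization. There, the mean brightness of the spots lay between 358 and 1275 in the green channel (E17.5) and between 10478 and 37165 in the red channel (P21), over local backgrounds of 42.5 to 46 and 77 to 82. The uncorrected red over green ratio was 16.0 to 58.5 on single probes. The linear dye factors were 12.3 for green and 5.24 for red on replicate 1 and 16.3 and 6.97 on replicate 2. After background subtraction and these factors together, the ratio was 7.95 to 29.2. Other bright probes varied widely around 0. The tested probes of the same array whose mean log2 signal reached that of the dimmest Nrbp2 probe had a median log2 ratio of 0.12 on replicate 1 (778 probes) and 0.23 on replicate 2 (361 probes). The 5th and 95th percentiles were -0.76 and 0.92 on replicate 1 and -1.94 and 1.24 on replicate 2, and the maxima 3.56 and 2.80. Of these probes, 1 probe on replicate 1 and 0 on replicate 2 reached the lowest Nrbp2 ratio. Because the gene was chosen for its high ratio, these counts support nothing further, and an effect of the dye was not tested. With a loess curve of ratio against brightness subtracted, the region stood at 3.92.

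Nrbp2 had the highest mean ratio of the 17617 regions, and also of the 1058 regions with at least 7 tested probes, of which the next stood at 1.41. Their median was -0.02. Regions at least 2-fold higher in P21 on both arrays made up 0.0965% of all those tested (0.392% with the lower ones), and probes at least 8-fold higher on both arrays 0.0168%, or 10 probes. Of these 10, 6 belonged to Nrbp2 and 4 to Bdh1. The seventh Nrbp2 probe, the one at 76139119, fell just short on replicate 2, at a log2 ratio of 2.97. These ranks restate how the gene was chosen and support nothing further.

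The regions whose pair of log2 ratios came nearest to that of Nrbp2 were sought by Euclidean distance over the 2 arrays, among 13821 other named regions of at least 2 tested probes. Bmp4, a secreted signalling ligand of the TGF-beta family, was nearest, at a distance of 1.70, with 3.75 on replicate 1 and 2.35 on replicate 2 over 2 probes. Bdh1, which interconverts the ketone bodies in mitochondria, followed at 1.76, with 2.93 and 2.67 over 6 probes. Arhgef40, whose name marks it as a guanine nucleotide exchange factor, lay at 2.15, with 2.19 and 2.95 over 2 probes. Def6, a signalling protein of lymphocytes, lay at 3.30 and Cox4i2, a subunit of cytochrome oxidase, at 3.53. All 5 were brighter in P21 on both arrays, as the measure of likeness requires. The region SD over the arrays was 0.99 for Bmp4 and 0.03 for Nrbp2. The latter is the balance of departures described above, and single Nrbp2 probes had SDs of 0.24 to 0.68.

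**Figure D3:**
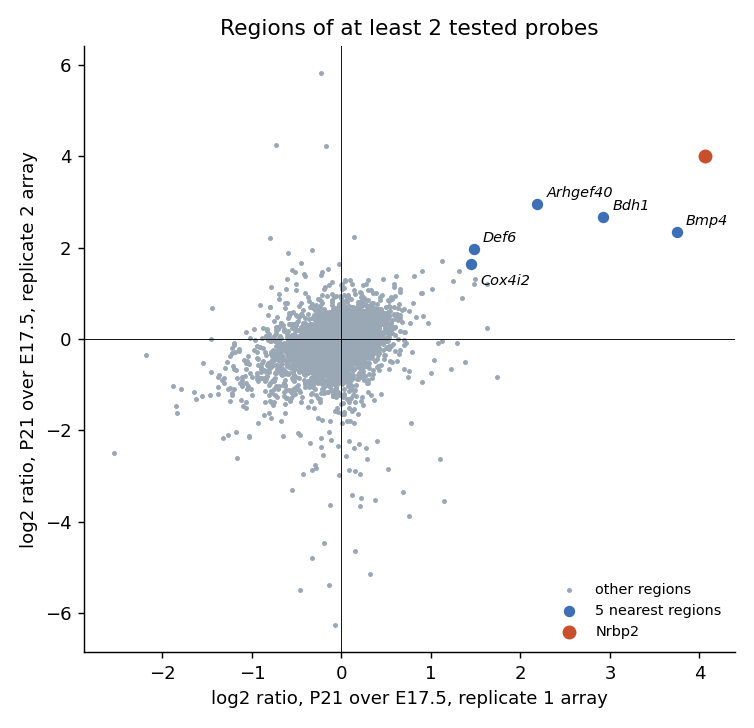
Log2 ratio of P21 over E17.5 on the replicate 2 array against that on the replicate 1 array, for regions of at least 2 tested probes (grey), with Nrbp2 in red and the 5 nearest named regions in blue. Nrbp2 lies at 4.06 and 4.02, beyond Bmp4 (3.75 and 2.35) and Bdh1 (2.93 and 2.67), and no other region is high on both arrays to the same degree.

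The genes on either side of Nrbp2 had ratios near 0. Within 100 kb of its ends the array held 7 other regions with 42 probes, 40 of them tested, and their ratios had no part in the choice of Nrbp2. Limma, with Benjamini-Hochberg adjustment over all 17617 regions, called 0 of the 7, at an adjusted p under 0.05 with at least a 2-fold difference of one sign on both arrays. Over all regions the same rule called 0%. The lowest adjusted p of any region was 0.140, so missing the threshold does not set a region apart. At an unadjusted p under 0.05 there were 0 of 7 as well, against 11.8% of all regions. The mean log2 ratios of the 7 regions lay between -0.12 and 0.16, with a median of -0.01. No region's value on a single array was outside -0.19 to 0.25. With 2 arrays, an adjusted p that misses the threshold does not show equal methylation, but these values bound the difference seen.

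The nearest region, 8.03 kb away in Puf60, which encodes a splicing factor, spans 76129289 to 76130404. Its 6 probes averaged 766 and 564 in E17.5 replicates 1 and 2 and 773 and 552 in P21 (geometric means). The ages overlapped, and the log2 ratio was -0.03 ± 0.04 (SD, n = 2; limma adjusted p = 0.874). RefSeq lists Puf60 and Eppk1 as the protein-coding genes next to Nrbp2. A region with probes of both Puf60 and Scrib, a scaffold protein of epithelial cell polarity, was 19.0 kb away. That region, at 76118544 to 76119457, stood at -0.12 ± 0.09 over 5 probes (adjusted p = 0.551), and a single Scrib probe 20.5 kb away at -0.11 ± 0.05 (adjusted p = 0.559). Further on, Fam83h, a gene needed for tooth enamel, stood at 0.16 ± 0.13 over 5 probes 73.2 kb away (adjusted p = 0.516). Mapk15, an atypical MAP kinase, stood at 0.07 ± 0.02 over 6 probes 94.2 kb away (adjusted p = 0.667).

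On the other side the nearest region, at 76168569 to 76170235 and 29.0 kb from Nrbp2, starts with probes named BC024139 and goes on with probes of Eppk1, which encodes epiplakin, a cytoskeletal linker of epithelia. It read 827 and 646 in E17.5 and 805 and 667 in P21. Over 8 probes this made -0.01 ± 0.05 on the log2 scale (adjusted p = 0.936). The next region of these genes, 34.3 kb away, stood at 0.00 ± 0.18 over 9 probes (adjusted p = 0.998), with 0.13 on replicate 1 and -0.12 on replicate 2. It holds the probe with the lowest mean ratio within 100 kb, named BC024139, at 76175577 to 76175627, whose arrays disagreed in sign. That probe read 204 and 999 in E17.5 and 324 and 300.5 in P21, or 0.66 on replicate 1 and -1.76 on replicate 2. Among single probes within 100 kb, the highest was the outermost Mapk15 probe, at 76042927 to 76042987, with 10066 and 7139 in E17.5 and 19080 and 12248 in P21. Its log2 ratio of 0.91 on replicate 1 and 0.75 on replicate 2 left it below 2-fold on both arrays.

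**Figure D4:**
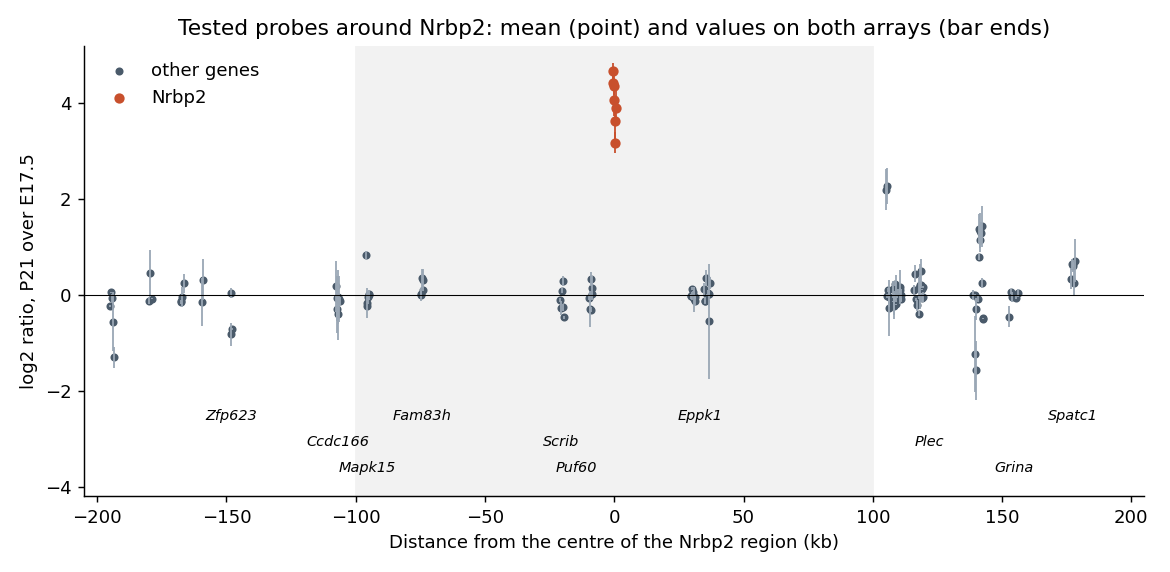
Log2 ratio of P21 over E17.5 of every tested probe within 200 kb of Nrbp2 against its distance in kb from the centre of the Nrbp2 region. Points are means of the 2 arrays, bars run from one array's value to the other's, and the grey band marks 100 kb to each side. The means of the 7 Nrbp2 probes lie between 3.18 and 4.67, and the highest mean of any other tested probe in the band is 0.83.

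The paralogue Nrbp1 and known partners were compared as well, together with other pseudokinases, in a list of 33 genes. Apart from Nrbp2, 27 of them had tested regions, 35 in all. Limma called 0 of the 35 regions over all regions tested (4 at an unadjusted p under 0.05, against 11.8% of all regions), and the lowest adjusted p was 0.366. Their median log2 ratio was -0.02, against 0.00 for all regions. On both arrays 7 regions (20%) were higher in P21 and 14 (40%) lower, where the shares over all regions were 32.1% and 32%.

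Neither region of Nrbp1, on chromosome 5, passed the test, which no region of the arrays passed. Its region of PROMOTER probes, at 29699150 to 29699584, read 198 and 149 in E17.5 replicates 1 and 2 and 215 and 162 in P21. The log2 ratio of these 2 probes was 0.12 on replicate 1 and 0.11 on replicate 2 (adjusted p = 0.539). The dimmer one, at 29699150, read only 70 and 80 in E17.5 and 80 and 88 in P21. Its ratio was 0.20 on replicate 1 and 0.13 on replicate 2, against 0.03 and 0.09 for the brighter one. Another 2 probes of that promoter did not meet the rule for testing, and read between 55 and 82 over both ages and arrays. The second region, shared with Krtcap3, stood at -0.26 ± 0.19 over 6 probes of both genes (adjusted p = 0.460). Its probes named for Nrbp1 ranged from -0.44 to 0.29 on replicate 1 and from -0.65 to 0.19 on replicate 2.

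Of the other list members, Tsc22d4, of the Tsc22d family, was matched to the region with the largest ratio. No tested probe of that region, at 136690483 to 136691478 on chromosome 5, is named for Tsc22d4 alone. Its probes are named Nyap1 or carry a hyphen-joined name that ends in Tsc22d4. The region read 4942 and 8060 in E17.5 and 7545 and 20997 in P21. The log2 ratio was 0.61 on replicate 1 and 1.37 on replicate 2, a mean of 0.99 ± 0.53 (SD, n = 2), which did not pass the test (adjusted p = 0.386). With normexp background correction it was 1.34 and was called. The other region matched to Tsc22d4, which does hold probes named for Tsc22d4 alone, stood at -0.01 ± 0.07 (adjusted p = 0.938). Cops3, a subunit of the COP9 signalosome that acts on cullin ligases, had the largest ratio below 0, at -0.47 ± 0.10 over 2 probes (adjusted p = 0.366). The other Cops3 region, shared with Nt5m, stood at 0.04 ± 0.36 over 5 probes (adjusted p = 0.917), with -0.21 on replicate 1 and 0.29 on replicate 2. Wnk1 stood at 0.04 ± 0.12 and Wnk4 at -0.20 ± 0.11, neither of which passed (adjusted p = 0.830 and 0.462), and Wnk2 and Wnk3 had no tested probe.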

How the data were processed

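Liver DNA of both ages was read on 4 arrays of 2 designs, and Nrbp2 lies on the second design. Per the file headers, the authors' Agilent Feature Extraction (9.1.1.1 on 1 array, 9.1.3.1 on 3; the submitters' processing notes name 9.1.1.1) gave background-subtracted intensity values with 1 linear dye factor per channel. The deposited log10 ratio served only to check that red over green is P21 over E17.5. Green was read for E17.5 and red for P21, as the labels give the dyes. For the probe coordinates the genome build is not stated in any source used here, and no sequence was read from them.

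Log2 ratios were centred on each array's median over tested probes. A probe was tested if it was no control or outlier and if, on both arrays, at least 1 channel was well above background, which kept 59516 of 83122 probes. Probes up to 500 bp apart formed regions, valued by the mean of their tested probes. Ratios were tested with limma (version 3.58.1, R 4.3.3; ratio against 0, empirical Bayes, tested on simulated data), with data.table (version 1.17.8) and matplotlib 3.10.9. Both ages of a replicate share an array: deviations of its 2 channels from the age means correlated at 0.680 over 17617 regions. The 2 replicates are the only source of error, and their number limits the precision. The labels do not say whether a replicate is 1 animal or a pool.

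The gene, the list of 33 related genes and the tests were chosen with earlier results of these data known. Named are all Nrbp2 probes, all genes with a region within 100 kb, Nrbp1, the 2 other list members with the largest ratios and the 5 regions nearest in their pair of ratios. Wnk1 and Wnk4 were added after their values were seen. Old gene names were updated through RefSeq (GRCm38.p6), whose coordinates served only to order the protein-coding genes around Nrbp2.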

Additional observations from a re-analysis of the deposited data

How the results depend on the processing

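The Nrbp2 region, at 4.04, was 4.50 with normexp background correction, 3.72 with normexp and loess, 3.92 with loess, 4.30 as the median of its probes and 4.07 with no replicate block (4 unpaired channels). Leaving out probe 1, 2, 3, 5 or 6, in order of coordinate, gave 3.93, 3.97, 3.98, 4.18 and 4.11. The single arrays gave 4.02 to 4.06. The lowest probe was at 3.18 and with normexp at 3.71; on single arrays it was 2.97 to 3.39. Limma called 0 neighbouring regions in all 14 alternative fits over regions, which tested 7 regions within 100 kb except with gaps of 200 bp (18) and 1000 bp (6). It also called 0 of 5 regions within 50 kb, 0 of 23 within 200 kb and 0 of 40 single probes. Between 0 and 3 of the 7 changed sign in these fits over regions, 3 of them with normexp, so no direction is given for any. In the list, normexp called 1 region, that of Nyap1 and the hyphen-joined name ending in Tsc22d4. Over all regions the count of 0 became 61 with normexp, 2 with normexp and loess and 1 with no filter on dim probes, and Nrbp2 was among the called regions in each of these 3, which is no test of a gene chosen on its ratio. With no replicate block it was 0. A single array gives a value but no test, and with 2 arrays a miss bounds little.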

Other observations

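The next probes beyond the 100 kb window lay in Plec, which encodes plectin, a cytoskeletal linker like epiplakin, and were singled out after their values were seen. The region at 76244119 to 76245327, 105 kb from Nrbp2, averaged 0.70 ± 0.08 on the log2 scale (SD, n = 2; 6 probes), which did not pass the test (limma adjusted p = 0.323). Within it the 2 INSIDE probes were higher in P21 on both arrays, with 1.83 on replicate 1 and 2.64 on replicate 2, whereas the 4 PROMOTER probes stood at 0.05 and -0.18. The probe at 76244335 read 2386 and 3492 in E17.5 and 8928 and 22356 in P21.

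Another Plec region, 140 kb away, stood at 0.66 ± 0.25 over 10 probes (adjusted p = 0.367), with 3 PROMOTER probes at least 2-fold higher on both arrays. The Plec region beside it, 138 kb away, stood at -0.62 ± 0.43 over 5 probes (adjusted p = 0.419), and Spatc1, a spermatogenesis gene, at 0.53 ± 0.18 over 6 probes 176 kb away (adjusted p = 0.367). On the side of Puf60, Zfp623, a zinc finger gene, stood at -0.50 ± 0.18 over 3 probes 147 kb away (adjusted p = 0.382), and the region of Naprt and Eef1d at -0.42 ± 0.22 over 5 probes 193 kb away (adjusted p = 0.402). The latter holds an Eef1d probe at 75945466 with -1.07 on replicate 1 and -1.52 on replicate 2. All these genes were named after their values were seen. Limma called 0 of the 23 regions within 200 kb. At an unadjusted p under 0.05 there were 6 of the 23, 3 above and 3 below 0, against 11.8% of all regions, and none of these 6 lay within 100 kb.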
